A study of Mus musculus with 9 samples.

Results

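Epicardial marker genes were followed in cultured cells of the embryonic mouse heart in which Dnmt3a or Dnmt3b had been lowered by siRNA. The 10 genes were Wt1, Tcf21, Upk3b, Upk1b, Bnc1, Msln, Krt19, Lrrn4, Clu and Anxa8, given as a list of symbols. Each was matched by its Ensembl identifier through GENCODE mouse release 21 (GRCm38), which found all 10 among the 43629 genes of the count tables. All 10 passed the filter on low counts. Cells came from ventricles of embryonic day 13.5 CD-1 mouse embryos, pooled by litter, and those that did not attach quickly were grown for 48 h. They were transfected with 0.012 pmol of a pool of 4 siRNAs against Dnmt3a (DNMT3a siRNA), of a pool of 4 against Dnmt3b (DNMT3b siRNA), or of a commercial negative control (negative siRNA), with 3 libraries in each group. After 72 h the cells were sorted on magnetic columns for VCAM1, an adhesion protein of the cell surface by which the submitters selected heart muscle cells. All groups thus share the culture, the lipofection and the sort, and whether the 3 libraries of a group stem from different litters is not in the labels.

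The epicardium is the mesothelial sheet that covers the heart. During development some of its cells lose their epithelial character, enter the myocardium and give rise to fibroblasts and vascular smooth muscle, and the sheet secretes retinoic acid and growth factors that act on the heart muscle below. Wt1, Tcf21 and Bnc1 encode transcription factors of this layer, while uroplakins, mesothelin and simple-epithelial keratins mark its surface and cytoskeleton. Dnmt3a and Dnmt3b encode the enzymes that place methyl groups on unmethylated CpG sites of DNA. DNA methylation was not analysed here.

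Reads counted in genes numbered 27852412 to 35896018 per library, and each of these reads is 1 count. Dnmt3a stood at 46.5 ± 6.33 CPM (counts per 1000000 reads in genes, with libraries scaled by the TMM method) after DNMT3a siRNA and 259 ± 23.2 CPM after negative siRNA (SD, n = 3 each). Dnmt3b stood at 1.70 ± 0.652 CPM after DNMT3b siRNA and 4.30 ± 0.0372 CPM after negative siRNA (SD, n = 3 each). Alignments that were not unique, which were counted in no gene, made up 36.6% to 40.1% of each table after DNMT3a siRNA, 41.5% to 42.5% after DNMT3b siRNA and 41.3% to 42.5% after negative siRNA. Vcam1, the gene of the sorted surface protein, was at 229 ± 25.2 CPM after DNMT3a siRNA, 283 ± 20.6 CPM after DNMT3b siRNA and 306 ± 47.8 CPM after negative siRNA (SD, n = 3 each). Its log2 fold change was -0.42 ± 0.12 (SE) with DNMT3a siRNA, with an adjusted p of 0.0510, or 0.0234 with the replicate number as a block, in edgeR's quasi-likelihood test. In bulk RNA, fewer cells of a type and less RNA per cell cannot be told apart.

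Several epicardial genes were among the abundant transcripts of these VCAM1-sorted cells. On a per-length scale (CPM per kilobase of merged exons, RPKM), the control levels were 182 ± 26.0 RPKM for Upk1b, 169 ± 7.07 for Msln and 165 ± 29.7 for Upk3b (SD, n = 3). In the same libraries Tnnt2, the cardiac troponin T gene that defines heart muscle cells, was at 103 ± 17.3 RPKM (SD, n = 3). Among the 16561 genes tested, Upk1b ranked 130, Msln 146 and Upk3b 151 by control RPKM, and Tnnt2 ranked 302. Merged exons pool all annotated transcripts of a gene. The length used for Tnnt2 may thus exceed that of its expressed transcript, and the order by RPKM depends on it. Without division by exon length, Tnnt2 stood above all 3. Control CPM was 801 ± 134 for Tnnt2, 581 ± 105 for Upk3b, 517 ± 21.7 for Msln and 380 ± 54.2 for Upk1b (SD, n = 3). Col1a1, a collagen gene of fibroblasts, ranked 2 with 3649.5 ± 908.2 RPKM (SD, n = 3).

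The remaining members followed in the controls in the order Lrrn4 (105 ± 18.7 RPKM), Clu (98.2 ± 34.9), Tcf21 (81.1 ± 8.80), Bnc1 (50.9 ± 5.58), Wt1 (21.6 ± 1.28), Krt19 (13.2 ± 3.03) and Anxa8 (5.98 ± 2.11; SD, n = 3 throughout). The library ranges of Upk1b, Msln and Upk3b overlapped each other in this order, as did those of Lrrn4 and Clu and of Clu and Tcf21. From Tcf21 downward each gene's 3 control libraries lay above those of the next. Upk3b's range did not reach that of Lrrn4.

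The order changed at its top in the knockdowns. Clu led at 145 ± 30.2 RPKM after DNMT3a siRNA, with a range that overlapped that of Upk3b (122 ± 30.3), and at 320 ± 26.7 RPKM after DNMT3b siRNA, above the range of Upk1b (119 ± 31.5; SD, n = 3 each). Wt1, Krt19 and Anxa8 held the last 3 places in all 3 groups. Anxa8 was at 1.23 ± 0.313 RPKM after DNMT3a siRNA and 3.64 ± 0.809 after DNMT3b siRNA (SD, n = 3 each).

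The genes of other epithelia that could carry keratins or uroplakins were scarce. Of 10 such markers 7 were too scarce to test, among them Epcam, an adhesion protein of epithelial cells, with 0 to 7 reads per library, Krt5, a keratin of stratified epithelia, with 0 to 3, and Nkx2-1, a transcription factor of lung and thyroid, with 0 to 3. Upk3a and Upk2, which with Upk1a and Upk1b build the plaques of the bladder lining, had 0 to 1 and 0 to 7 reads. Upk1a had 11 to 39 reads and passed the filter on low counts. Upk3bl, a relative of Upk3b on the same chromosome, had 0 to 5 reads. Cdh1, the E-cadherin gene, had 0 to 6 reads. Cldn4, Cldn7 and Krt14 were the 3 markers of this list that could be tested, and none of them exceeded a group mean of 3.96 CPM. Of these, Cldn4 rose with DNMT3a siRNA (adjusted p = 0.0193 in edgeR) and with DNMT3b siRNA (0.0390), and Krt14 fell with DNMT3a siRNA (0.00367). The Cldn4 calls ended without negative library 1 or 3 or the libraries numbered 2. With DNMT3a siRNA its call also ended without DNMT3a library 1 and in a fit of only the groups compared, and with DNMT3b siRNA without DNMT3b library 2 or 3 and with limma-voom.

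After DNMT3a siRNA, 4 of the 10 genes fell and 0 rose, in the quasi-likelihood test of edgeR with Benjamini-Hochberg adjustment over 16561 genes (threshold 0.05). Beside this test 18 alternatives were run: other scalings, filters and tests, a fit of only the groups compared, the replicate number as a block, and libraries left out. Anxa8, Msln, Tcf21 and Upk1b were lower than in negative siRNA cells, to between 20.7% and 63.1% of the control level. Over all genes tested, 10.1% changed in this comparison, 4.87% higher and 5.22% lower. Scaling by library size alone turned the share of changed genes that were higher to 61.1%, in place of 48.3%. At an unadjusted p under 0.05, 1 member was higher (Clu), and DESeq2 and limma-voom called 0 members higher. The median log2 fold change of the 10 was -0.44, beside 0.02 over all genes, and 9 of the 10 were below 0, beside 46.9% of all genes. The 3 libraries of the knockdown lay wholly below the 3 controls for 4 members, and for 12.6% of all genes. The count that fell was 3 with the replicate number as a block and 2 without the 3 libraries numbered 2.

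After DNMT3b siRNA, 1 gene rose, Clu to 3.26 times the control level (326%), and 2 fell, Tcf21 and Upk3b. Of all genes 5.64% changed, 3.52% higher and 2.12% lower. The median log2 fold change of the members was -0.50, beside 0.00 over all genes, and 8 of the 10 were below 0, beside 49.8% of all genes. Libraries lay wholly below the controls for 5 members (12.3% of all genes) and wholly above for Clu (13.8% of all genes). The count of members that fell was 0 without DNMT3b library 2, DNMT3b library 3 or negative library 3, 1 without DNMT3a library 1 or negative library 1, and 5 without DNMT3b library 1 or negative library 2, and 5 with DESeq2. It was 1 without the 3 libraries numbered 2. Both knockdowns were set against the same 3 control libraries, so their fold changes share the error of those controls.

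Set directly against each other, DNMT3a siRNA cells were lower than DNMT3b siRNA cells in 2 members, Anxa8 and Clu, and higher in 0. The count of 2 was 0 without DNMT3a library 1 and 1 without DNMT3a library 3 or any 1 of the DNMT3b libraries, and 1 with no filter. Of all genes 9.55% differed here, 4.47% higher and 5.08% lower with DNMT3a siRNA. At an unadjusted p under 0.05 0 members were higher, and DESeq2 and limma-voom also called 0 higher. The groups' libraries stood apart for these 2 members, and for 16.1% of all genes in that direction. The other 8 members overlapped between the knockdowns, and none of those 8 differences passed the test.

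**Figure D1:**
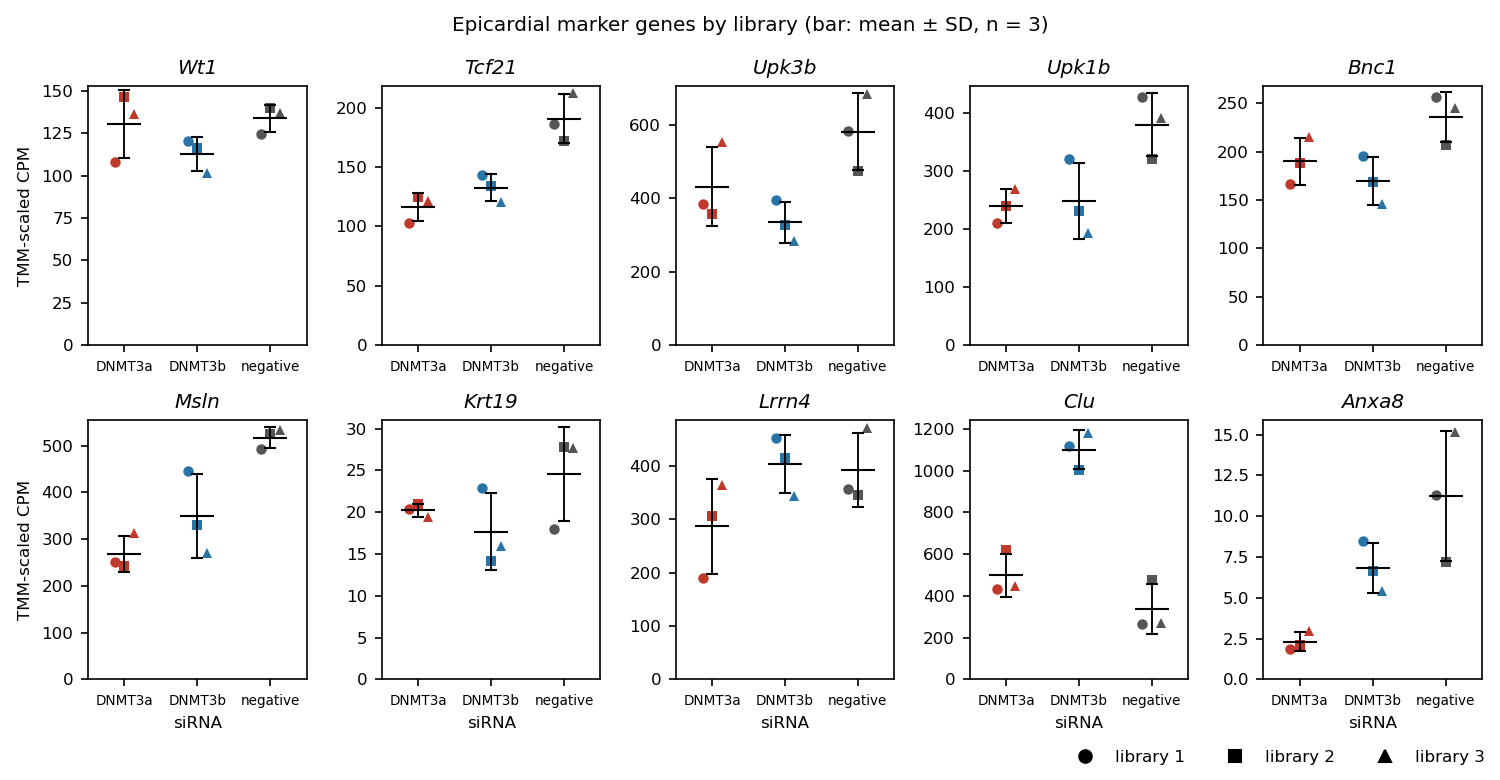
TMM-scaled CPM (vertical axes, each from 0) of the 10 epicardial marker genes in each library, by siRNA; markers give the library number and bars the mean ± SD of 3 libraries. Tcf21, Msln, Upk1b and Anxa8 lie wholly below the controls after DNMT3a siRNA, Clu lies wholly above them after DNMT3b siRNA, and Wt1 stays between 101 and 147 CPM in all 9 libraries.

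Among the transcription factors, Wt1 passed the test in no comparison. Wt1 (ENSMUSG00000016458, chromosome 2, 105126529 to 105173616, plus strand, GRCm38) encodes a zinc finger protein that the epicardium shares with the developing kidney and gonad. Libraries 1, 2 and 3 held 108, 147 and 137 CPM in DNMT3a siRNA cells, 121, 117 and 101 CPM in DNMT3b siRNA cells, and 125, 140 and 137 CPM in negative siRNA cells. The DNMT3a and control libraries overlapped, while the 3 DNMT3b libraries lay just below the lowest control. The log2 fold change was -0.04 ± 0.11 (SE) with DNMT3a siRNA (adjusted p = 0.889), with the sign turned when library size alone was used (0.016) or without DNMT3a library 1 (0.082). It was -0.25 ± 0.11 with DNMT3b siRNA (adjusted p = 0.247) and 0.21 ± 0.11 between DNMT3a and DNMT3b siRNA (adjusted p = 0.289).

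Tcf21 was the only member that passed the main test as lower in both knockdowns. Msln, Upk1b and Anxa8 had negative fold changes in both but passed only with DNMT3a siRNA, and Upk3b only with DNMT3b siRNA. Tcf21 (ENSMUSG00000045680, chromosome 10, 22817281 to 22820174, minus strand) encodes a basic helix-loop-helix factor needed for epicardial cells to become fibroblasts, and cardiac fibroblasts express it too. It was at 103, 125 and 122 CPM in the DNMT3a libraries, 143, 134 and 121 CPM in the DNMT3b libraries, and 187, 172 and 213 CPM in the controls. Every knockdown library was below every control. The log2 fold change in DNMT3a siRNA cells was -0.71 ± 0.11 (adjusted p = 0.00252), or 61.3% of the control level, and passed in all 18 alternatives. After DNMT3b siRNA it was -0.52 ± 0.11 (adjusted p = 0.0165), or 69.7%, and the call ended without DNMT3b library 2 (adjusted p = 0.0706), DNMT3b library 3 (0.0879) or negative library 3 (0.0683). The knockdowns differed by -0.19 ± 0.11 (DNMT3a minus DNMT3b siRNA, adjusted p = 0.304).

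Bnc1 passed the test in no comparison. Bnc1 (ENSMUSG00000025105, chromosome 7, 81966672 to 81992292, minus strand) encodes basonuclin 1, a zinc finger protein first known from keratinocytes and germ cells. Its libraries held 166, 189 and 215 CPM in DNMT3a siRNA cells, 195, 169 and 145 CPM in DNMT3b siRNA cells, and 257, 207 and 245 CPM in negative siRNA cells. The DNMT3a libraries overlapped the controls through DNMT3a library 3, and the DNMT3b libraries lay below all controls. The log2 fold change in DNMT3a siRNA cells was -0.31 ± 0.13 (adjusted p = 0.160). It was -0.48 ± 0.13 with DNMT3b siRNA (adjusted p = 0.0590), which passed without DNMT3b library 1 (0.0349) or negative library 2 (0.0240), with DESeq2 (0.0107) and with no filter (0.00403). An annotated pseudogene on the other strand, 4833418N17Rik, shared 2.11% of Bnc1's exon bases and had 41 to 103 reads per library, against 4150 to 9211 for Bnc1.

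Of the genes of the cell surface and membrane, Msln and Upk1b fell with DNMT3a siRNA and Upk3b with DNMT3b siRNA. Msln (ENSMUSG00000063011, chromosome 17, 25748613 to 25754378, minus strand) encodes mesothelin, a lipid-anchored protein of mesothelial surfaces. It was at 252, 242 and 312 CPM in DNMT3a siRNA cells, 446, 329 and 270 CPM in DNMT3b siRNA cells, and 493, 525 and 534 CPM in negative siRNA cells. The controls lay close together and above all 6 knockdown libraries, and the DNMT3b libraries spread 1.65-fold. With DNMT3a siRNA Msln was at 52.0% of the control level (-0.94 ± 0.17, adjusted p = 0.00653), a call that ended without the 3 libraries numbered 2 (adjusted p = 0.0808). With DNMT3b siRNA it was at 67.4% (-0.57 ± 0.17, adjusted p = 0.0763), which passed without DNMT3b library 1 (0.0123) and with DESeq2 (0.0119). The difference between DNMT3a and DNMT3b siRNA was -0.38 ± 0.17 (adjusted p = 0.187).

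Upk1b and Upk3b encode uroplakins, membrane proteins best known from the bladder lining and also made by mesothelium. Upk1b (ENSMUSG00000049436, chromosome 16, 38773184 to 38800328, minus strand), a tetraspanin, was at 211, 240 and 269 CPM in DNMT3a siRNA cells, 322, 232 and 194 CPM in DNMT3b siRNA cells, and 427, 321 and 393 CPM in negative siRNA cells. Its DNMT3a libraries were below all controls, while DNMT3b library 1 lay just above the lowest control. It fell with DNMT3a siRNA to 63.1% of control (-0.66 ± 0.18, adjusted p = 0.0463), close to the threshold. The call ended with the replicate number as a block (adjusted p = 0.0508), without any 1 of DNMT3a libraries 1 (0.154), 2 (0.105) and 3 (0.0703), DNMT3b library 2 (0.0722) and negative libraries 1 (0.119) and 3 (0.128), without the libraries numbered 2 (0.119), with no filter (0.168) and with library size alone (0.0614). With DNMT3b siRNA the change was -0.61 ± 0.18 (adjusted p = 0.0832), which passed without DNMT3b library 1 (0.0146) or negative library 2 (0.0434) and with DESeq2 (0.0112).

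Upk3b (ENSMUSG00000042985, chromosome 5, 136038496 to 136046487, plus strand) is widely used as a mesothelial marker. Its libraries held 384, 358 and 555 CPM in DNMT3a siRNA cells, 394, 328 and 283 CPM in DNMT3b siRNA cells, and 584, 474 and 684 CPM in negative siRNA cells. DNMT3a library 3 lay within the control range, whereas the 3 DNMT3b libraries were below it. With DNMT3a siRNA the change was -0.43 ± 0.19 (adjusted p = 0.208). With DNMT3b siRNA Upk3b fell to 57.7% of control (-0.79 ± 0.19, adjusted p = 0.0441). That call ended without DNMT3a library 1 (0.0592), DNMT3b library 2 (0.154) or 3 (0.172), negative library 1 (0.111) or 3 (0.147), the libraries numbered 2 (0.0550), and with no filter (0.158). The knockdowns did not pass against each other for Upk1b (-0.05 ± 0.18, adjusted p = 0.883) or Upk3b (0.37 ± 0.19, adjusted p = 0.274).

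Lrrn4 (ENSMUSG00000043110, chromosome 2, 132868305 to 132880891, minus strand), a leucine-rich repeat membrane protein used as a mesothelial marker, passed in no comparison. Its libraries held 190, 307 and 364 CPM in DNMT3a siRNA cells, 451, 415 and 344 CPM in DNMT3b siRNA cells, and 357, 346 and 471 CPM in negative siRNA cells. DNMT3a library 1 was the lowest of the 9, and the DNMT3a libraries spread 1.92-fold, and the groups overlapped. The log2 fold change in DNMT3a siRNA cells was -0.45 ± 0.23 (adjusted p = 0.261) and 0.04 ± 0.23 with DNMT3b siRNA (adjusted p = 0.936). The sign with DNMT3b siRNA turned without DNMT3b library 1 (-0.06), negative library 1 (-0.03), negative library 2 (-0.04) or the libraries numbered 2 (-0.07). The difference between DNMT3a and DNMT3b siRNA was -0.49 ± 0.23 (adjusted p = 0.214).

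Krt19, a keratin of simple epithelia (ENSMUSG00000020911, chromosome 11, 100140810 to 100148665, minus strand), also passed nowhere. Only Anxa8 among the members was at a lower level, and Krt19 had 437 to 855 reads per library. It was at 20.4, 20.97 and 19.4 CPM in DNMT3a siRNA cells, 22.9, 14.1 and 15.98 CPM in DNMT3b siRNA cells, and 18.0, 27.8 and 27.7 CPM in negative siRNA cells. Control library 1 lay below all DNMT3a libraries, and the groups overlapped. The changes were -0.27 ± 0.20 with DNMT3a siRNA (adjusted p = 0.448), -0.47 ± 0.20 with DNMT3b siRNA (adjusted p = 0.204), and 0.20 ± 0.20 between DNMT3a and DNMT3b siRNA (adjusted p = 0.586).

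Clu was the only member that rose against negative siRNA. Clu (ENSMUSG00000022037, chromosome 14, 65968483 to 65981547, plus strand) encodes clusterin, a secreted chaperone that many cell types besides the epicardium make and that is induced by cell stress. Its libraries held 432, 618 and 445 CPM in DNMT3a siRNA cells, 1118.3, 1001.2 and 1182.4 CPM in DNMT3b siRNA cells, and 264, 476 and 272 CPM in negative siRNA cells. All DNMT3b libraries were above all others, and control library 2 lay above 2 of the DNMT3a libraries. Clu rose with DNMT3b siRNA (1.71 ± 0.24, adjusted p = 0.00431), in all 18 alternatives. With DNMT3a siRNA the change of 0.56 ± 0.23 did not pass (adjusted p = 0.168), and it passed without negative library 2 (0.89, adjusted p = 0.00509) and without all libraries numbered 2 (0.70, adjusted p = 0.00288). DNMT3a siRNA cells had 45.3% of the level of DNMT3b siRNA cells (-1.14 ± 0.23, adjusted p = 0.0177). That call ended without DNMT3a library 1 (0.0758) or 3 (0.0687), DNMT3b library 1 (0.0502), 2 (0.0517) or 3 (0.0699), and with no filter (0.0807).

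Anxa8 showed the largest fold change of the 10. Anxa8 (ENSMUSG00000021950, chromosome 14, 34085981 to 34100571, plus strand) encodes an annexin, a protein that binds membrane phospholipids in the presence of calcium. It was at 1.85, 2.12 and 2.98 CPM after DNMT3a siRNA (57, 70 and 91 reads), 8.45, 6.64 and 5.43 CPM after DNMT3b siRNA (275, 205 and 155 reads), and 11.3, 7.22 and 15.2 CPM after negative siRNA (406, 222 and 410 reads). The DNMT3a libraries were below all 6 others, and the DNMT3b libraries overlapped the controls through control library 2. The level after DNMT3a siRNA was 20.7% of control (-2.28 ± 0.29, adjusted p = 0.00130), a call kept in all 18 alternatives. With DNMT3b siRNA the change was -0.71 ± 0.27 (adjusted p = 0.160), and it passed without negative library 2 (0.0264). Between the knockdowns Anxa8 was lower with DNMT3a siRNA (-1.56 ± 0.29, adjusted p = 0.0104), a call that ended without DNMT3a library 1 (0.0526). A630023A22Rik, an annotated gene on the other strand within the Anxa8 locus, shared 0 exon bases with it and had 6 to 22 reads per library.

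**Figure D2:**
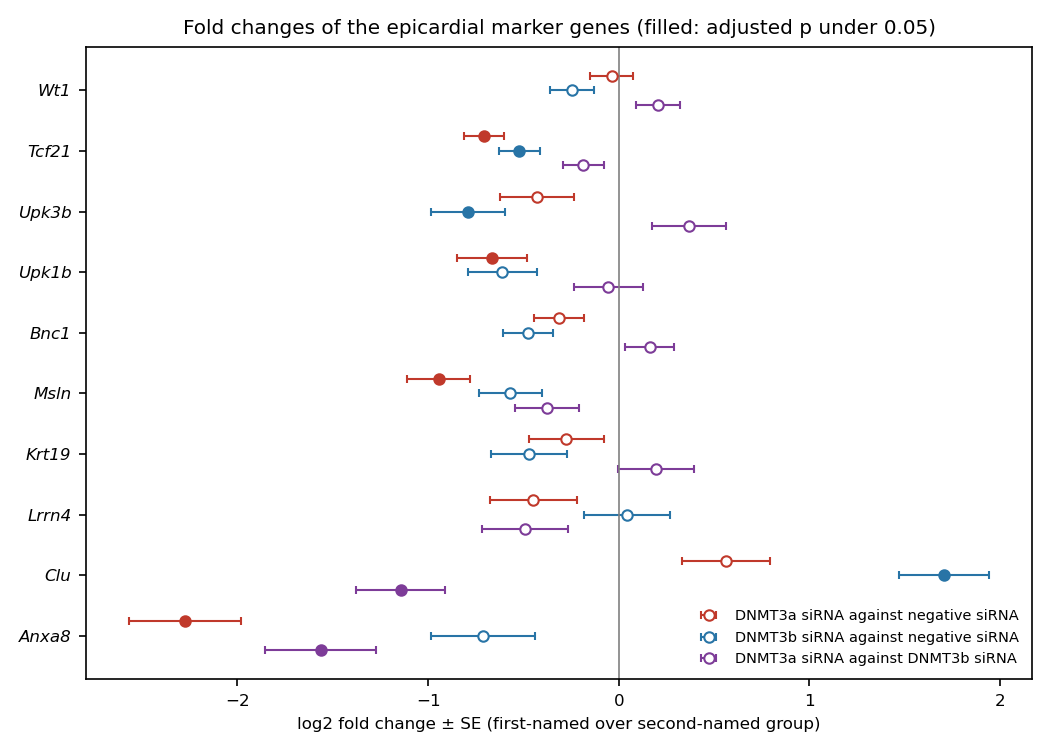
log2 fold change (horizontal axis) ± SE of each epicardial marker gene in the 3 comparisons, the first-named group over the second; filled points have an adjusted p under 0.05. Points of 9 genes lie left of 0 with DNMT3a siRNA against negative siRNA, Anxa8 furthest at -2.28, and Clu lies to the right with both siRNAs.

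Because the siRNAs targeted enzymes that act on CpG sites, the CpG content of the members' promoter windows was described. RefSeq windows (GRCm38.p6) running from 250 bases before to 50 bases after a gene's start were available for 5 of the 10 members. Msln and Upk1b, which fell with DNMT3a siRNA, had no window. Neither had Clu, which rose with DNMT3b siRNA and was lower only with DNMT3a against DNMT3b siRNA. Of the 5, Lrrn4 and Bnc1 passed in no comparison, and Lrrn4's window is described below but not printed. Whether CpG content goes with the changes was not tested. The 4 printed here belong to Tcf21, Upk3b and Anxa8, which fell in at least 1 comparison, and to Bnc1. Each reads 5′ to 3′ on the gene's strand, with CpG sites in capitals. They lie at chr10:22820094-22820393 (minus), chr5:136038246-136038545 (plus), chr14:34085729-34086028 (plus) and chr7:81992250-81992549 (minus).
Tcf21: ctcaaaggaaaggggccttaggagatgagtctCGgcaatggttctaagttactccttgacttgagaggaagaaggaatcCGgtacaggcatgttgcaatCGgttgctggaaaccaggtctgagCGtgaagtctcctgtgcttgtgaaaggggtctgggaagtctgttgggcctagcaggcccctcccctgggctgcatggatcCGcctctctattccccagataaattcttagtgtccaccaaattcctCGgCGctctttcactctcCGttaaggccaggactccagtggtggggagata
Upk3b: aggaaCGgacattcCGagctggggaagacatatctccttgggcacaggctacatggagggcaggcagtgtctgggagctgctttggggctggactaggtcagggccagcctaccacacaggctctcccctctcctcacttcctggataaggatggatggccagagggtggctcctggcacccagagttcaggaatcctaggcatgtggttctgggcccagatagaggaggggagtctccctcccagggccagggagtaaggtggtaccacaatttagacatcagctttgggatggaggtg
Anxa8: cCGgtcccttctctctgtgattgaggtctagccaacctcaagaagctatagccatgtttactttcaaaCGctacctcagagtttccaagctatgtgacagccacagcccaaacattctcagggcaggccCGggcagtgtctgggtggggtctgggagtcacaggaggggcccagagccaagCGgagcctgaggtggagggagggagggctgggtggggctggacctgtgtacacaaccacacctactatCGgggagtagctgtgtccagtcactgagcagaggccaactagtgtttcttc
Bnc1: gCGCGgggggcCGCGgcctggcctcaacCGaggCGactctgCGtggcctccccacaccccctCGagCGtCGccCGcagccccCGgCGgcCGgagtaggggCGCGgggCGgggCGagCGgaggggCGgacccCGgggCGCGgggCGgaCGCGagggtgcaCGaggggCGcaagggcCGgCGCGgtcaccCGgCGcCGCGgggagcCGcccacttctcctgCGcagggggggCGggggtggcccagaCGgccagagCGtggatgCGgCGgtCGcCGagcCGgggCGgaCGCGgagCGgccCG

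The 4 windows differed widely in CpG content. Tcf21's held 8 CpG sites, Upk3b's 2, Anxa8's 5 and Bnc1's 50, and that of Lrrn4 held 7. Over all 32851 windows the median was 7, with quartiles of 3 and 20. By CpG count Upk3b's window stood at the percentile 18.7, Anxa8's at 40.8, Lrrn4's at 49.6, Tcf21's at 52.8 and Bnc1's at 99.2. The windows of Upk3b and Lrrn4 each held GGAATG, the core word bound by TEAD factors, on 1 strand or the other, as did 14.7% of all windows. GCGTGGG, the core of the word reported for WT1, stood in 0 of the 5 (5.04% of all windows), and TATAAA in 0 of the 5 (13.6%). Both strands were searched, and a matching word is a description of the sequence only.

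Library by library, 6 members were above their own mean in every control. On log2 CPM relative to each gene's mean over the 9 libraries, Anxa8, Upk3b, Upk1b, Bnc1, Tcf21 and Msln were all above 0 in each of the 3 controls, from 0.08 for Bnc1 in control library 2 to 1.46 for Anxa8 in control library 3. Each mean includes the knockdown libraries, so this restates the fold changes above and adds no separate evidence. The share of all genes with this pattern was not computed. DNMT3b library 3 was the lowest of the 9 for Wt1 (-0.30), Bnc1 (-0.43), Upk3b (-0.61) and Upk1b (-0.53). Within the DNMT3b group library 1 was the highest of the 3 for all 9 members other than Clu. Between libraries of the same number, log2 CPM after DNMT3a siRNA was below that after negative siRNA in 3 of 3 pairs for 7 members, above it in 3 of 3 for Clu, and split for Wt1 and Krt19. The share of all genes with 3 of 3 pairs in 1 direction was not computed, so these counts have no background to be read against. Clu stood at 1.00, 0.84 and 1.08 in the DNMT3b libraries and -1.08, -0.23 and -1.04 in the controls.

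**Figure D3:**
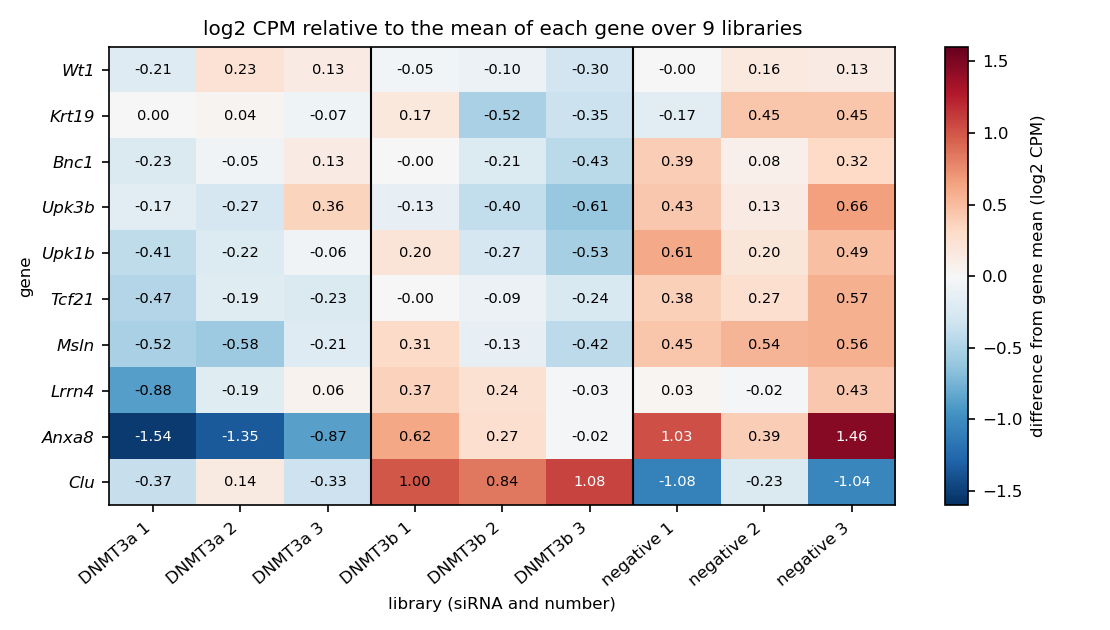
Difference of log2 CPM from each gene's mean over 9 libraries (color and printed value) for the 10 epicardial marker genes (rows) in each library (columns, DNMT3a, DNMT3b and negative siRNA from left to right). Anxa8, Upk3b, Upk1b, Bnc1, Tcf21 and Msln are positive in all controls, whereas Clu is near 1 in the DNMT3b libraries.

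The closest members by the root mean square difference of these centred values over 9 libraries were Upk1b and Bnc1 (0.16), Tcf21 and Upk1b (0.17) and Upk3b and Bnc1 (0.18), and the farthest were Clu and Anxa8 (1.36). Among 11593 protein-coding genes outside the members, Met, the receptor of hepatocyte growth factor, was nearest to Msln (0.092, against a root mean square of 0.44 for Msln itself). Vma21 (0.10) and Sema3d (0.12), a secreted semaphorin of the epicardium, were nearest to Upk1b, Slc25a15 (0.098) and Colec12 (0.098) to Tcf21, and Arhgap32 (0.12) to Upk3b. Clic5 (0.10) was nearest to Clu, and Krt14 (0.35), a keratin of stratified epithelia, to Anxa8. Zfp64 (0.053) was nearest to Wt1, Abca9 (0.081) to Bnc1, Pck2 (0.15) to Krt19 and Mgst1 (0.15) to Lrrn4. These are descriptions over libraries that share their groups.

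Other genes used as epicardial or mesothelial markers changed in both directions. Of a list of 25, 23 were tested: after DNMT3a siRNA 3 rose and 5 fell (median log2 fold change -0.21, beside 0.02 over all genes). Over all genes 4.87% rose and 5.22% fell. Aldh1a2, the main retinoic acid synthesising enzyme of the epicardium, was at 24.98 ± 6.47 CPM after DNMT3a siRNA and 71.9 ± 13.5 CPM after negative siRNA (SD, n = 3 each; -1.52 ± 0.18, adjusted p = 9.10e-04). Slpi, a secreted protease inhibitor of epithelia, fell by 1.68 (SE 0.26, adjusted p = 0.00291). Bcam, a laminin-binding adhesion protein, rose (0.79 ± 0.12, adjusted p = 0.00219), as did Tbx18, a T-box factor of the epicardium (0.50 ± 0.10, adjusted p = 0.00935). Krt18, a keratin gene, rose too (1.11 ± 0.28, adjusted p = 0.0396), a call that passed in 8 of the 18 alternatives. The keratin genes Krt7 (-0.01 ± 0.11) and Krt8 (-0.31 ± 0.23) did not pass. The other genes that fell in edgeR were Sema3d (-0.86 ± 0.19, adjusted p = 0.0187), Igfbp6 (-1.58 ± 0.36, 0.0328) and Efemp1 (-1.33 ± 0.31, 0.0329). These passed in 13, 9 and 11 of the 18 alternatives. The count that fell was 2 without DNMT3a library 1, DNMT3a library 2 or the libraries numbered 2, 3 without DNMT3b library 2 or negative library 3, and 2 with no filter.

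After DNMT3b siRNA 2 of these 23 rose and 1 fell (median -0.25, beside 0.00 over all genes). Over all genes 3.52% rose and 2.12% fell. Bcam rose (0.61 ± 0.12, adjusted p = 0.0122), and so did Krt18, a keratin of simple epithelia, at 67.6 ± 6.19 CPM after DNMT3b siRNA and 26.3 ± 8.75 CPM after negative siRNA (SD, n = 3 each; 1.36 ± 0.28, adjusted p = 0.0263). Aldh1a1, another enzyme of retinoic acid synthesis, fell (-0.75 ± 0.16, adjusted p = 0.0248). Over the alternatives 0 to 3 rose and 0 to 5 fell: 0 fell without DNMT3b library 2 or 3 or negative library 1 or 3, 5 fell without negative library 2 and with DESeq2, and 0 rose without DNMT3b library 3.

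Between the knockdowns 2 of the 23 were higher and 3 lower with DNMT3a siRNA, beside 4.47% and 5.08% of all genes. Aldh1a2 was at 24.98 ± 6.47 CPM in DNMT3a siRNA cells, against 55.9 ± 2.74 CPM in DNMT3b siRNA cells (SD, n = 3 each; -1.16 ± 0.18, adjusted p = 0.00504). Aldh1a1 differed in the opposite direction, at 182 ± 42.1 CPM in DNMT3a siRNA cells, against 94.7 ± 11.8 CPM in DNMT3b siRNA cells (SD, n = 3 each; 0.95 ± 0.16, adjusted p = 0.00798). Slpi was lower (-1.43 ± 0.26, adjusted p = 0.00892) and so was C3, a complement protein (-2.47 ± 0.59, adjusted p = 0.0436), which passed in 8 of the 18 alternatives. The count that was higher was 1 without DNMT3a library 1 or 3, DNMT3b library 2 or 3 or negative library 1 or 3, and the count that was lower was 5 with DESeq2.

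**Figure D4:**
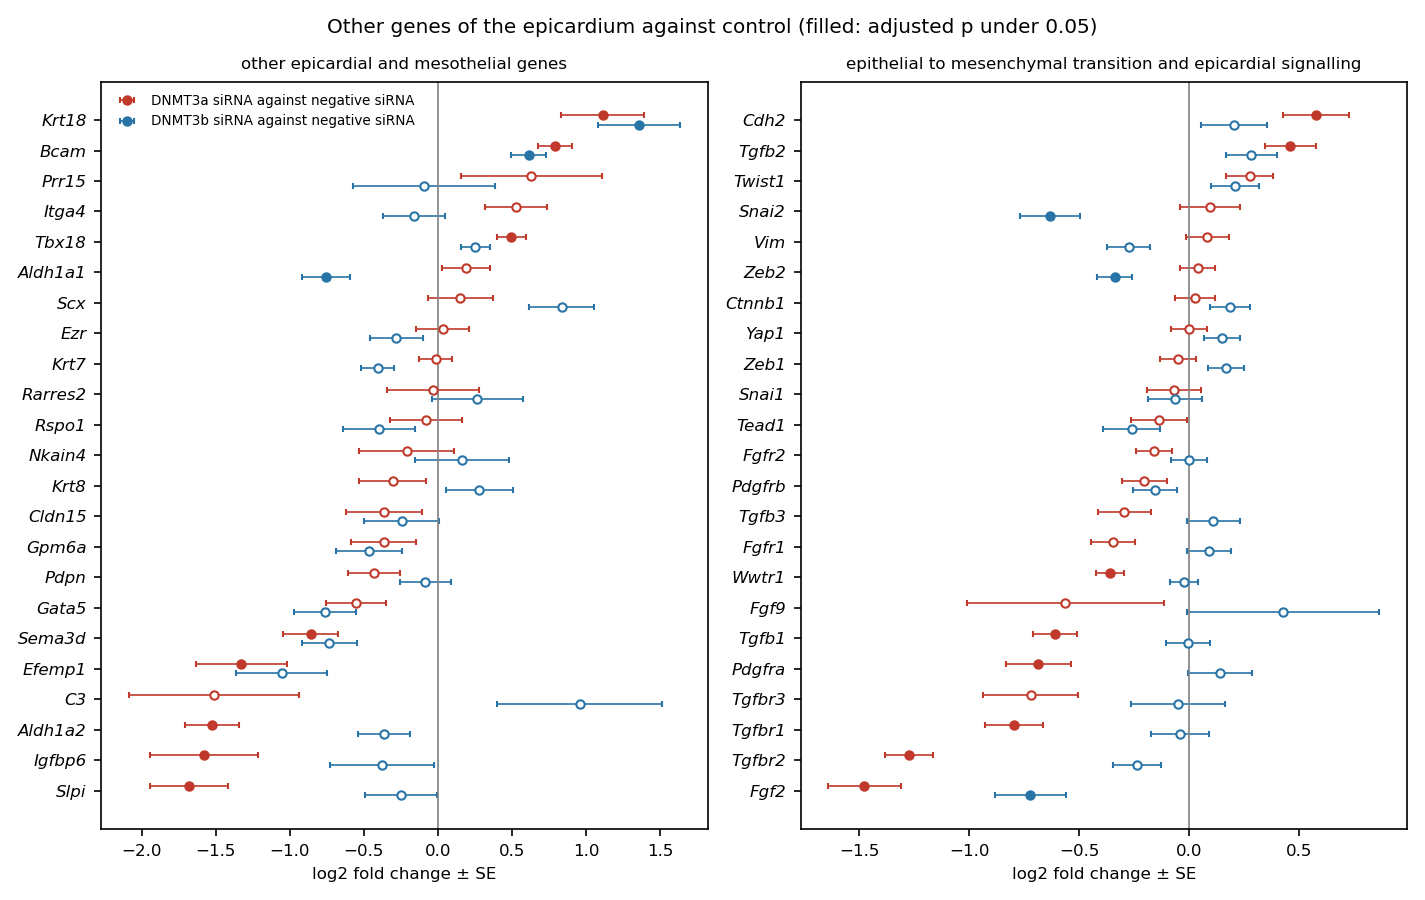
log2 fold change ± SE (horizontal axes) with DNMT3a siRNA and with DNMT3b siRNA against negative siRNA for 23 other epicardial and mesothelial genes (left) and 23 genes of epithelial-mesenchymal transition and epicardial signalling (right); filled points have an adjusted p under 0.05. Slpi and Aldh1a2 are among the 4 lowest on the left and Fgf2 and Tgfbr2 on the right with DNMT3a siRNA.

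Of 23 tested genes of epithelial-mesenchymal transition and of the growth factor signals that drive it, 2 rose and 6 fell with DNMT3a siRNA (median -0.16). Over all genes 4.87% rose and 5.22% fell. The transition factors Snai1, Snai2, Twist1, Zeb1 and Zeb2 did not pass here, with log2 fold changes from -0.07 to 0.28. Of these, Twist1 passed in 1 of the 18 alternatives and the others in none. Receptors of transforming growth factor beta were among the 6 genes that fell. Tgfbr2 was at 72.9 ± 2.79 CPM after DNMT3a siRNA and 176 ± 17.2 CPM after negative siRNA (SD, n = 3 each; -1.27 ± 0.11, adjusted p = 1.02e-04), and Tgfbr1 at 60.2 ± 9.25 and 105 ± 12.3 CPM in the same groups (-0.80 ± 0.13, adjusted p = 0.00414). Fgf2, a fibroblast growth factor (-1.48 ± 0.17, adjusted p = 4.58e-04), and the ligand gene Tgfb1 (-0.61 ± 0.10, adjusted p = 0.00392) fell too. Each of these 4 passed in all 18 alternatives. The genes that rose were Cdh2 and Tgfb2, named after their values were seen, and their count was 0 without DNMT3a library 1, DNMT3b library 3 or negative library 3 and in a fit of only the groups compared, and 1 without DNMT3a library 2 or 3, DNMT3b library 1 or 2, negative library 1 or the libraries numbered 2.

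With DNMT3b siRNA 3 of the 23 fell and 0 rose (median 0.00), beside 2.12% and 3.52% of all genes. At an unadjusted p under 0.05, 1 of the 23 was higher, and 0 by DESeq2 or limma-voom. Those that fell were Snai2, a repressor of epithelial genes (-0.63 ± 0.14, adjusted p = 0.0224), Fgf2 (-0.72 ± 0.16, adjusted p = 0.0248) and Zeb2, another such repressor (-0.34 ± 0.08, adjusted p = 0.0317). None of these passed without DNMT3b library 2, DNMT3b library 3 or negative library 3, and 1 passed without negative library 1. Between the knockdowns 3 were higher and 7 lower with DNMT3a siRNA, beside 4.47% and 5.08% of all genes. The lower ones were led by Tgfbr2 (-1.04 ± 0.11, adjusted p = 6.37e-04), Tgfb1 (-0.61 ± 0.10, adjusted p = 0.00544), Tgfbr1 (-0.75 ± 0.13, adjusted p = 0.00700) and Pdgfra, a receptor of epicardium-derived fibroblasts (-0.82 ± 0.15, adjusted p = 0.00824). The count that was higher was 0 without DNMT3b library 2 or 3 and 1 without DNMT3a library 1.

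Of 19 relatives of the members by gene family 14 were tested, and 0 passed with either siRNA against negative siRNA in edgeR. At an unadjusted p under 0.05, 1 was higher and 1 lower with DNMT3a siRNA and 2 were lower with DNMT3b siRNA; DESeq2 called 1 lower with DNMT3a siRNA and 0 with DNMT3b siRNA, and limma-voom 0 in both. With the replicate number as a block 1 was higher and 1 lower with DNMT3a siRNA. The tested relatives included 8 other annexins. Between the knockdowns Lrrn3 was higher with DNMT3a siRNA (1.74 ± 0.40, adjusted p = 0.0218) and Lrrn2 lower (-1.98 ± 0.44, adjusted p = 0.0272). Neither passed without DNMT3a library 1, DNMT3b library 2 or DNMT3b library 3, and Lrrn2 did not pass without DNMT3a library 3.

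Marker genes of other cell types differed between the same libraries, with heart muscle genes higher in both knockdowns. All 12 heart muscle markers were tested and 10 rose with each siRNA. Over all genes 4.87% rose with DNMT3a siRNA and 3.52% with DNMT3b siRNA, and 5.22% and 2.12% fell. The heart muscle markers summed to 5229.9 to 6890.4 CPM after DNMT3a siRNA, 6582.7 to 7953.6 CPM after DNMT3b siRNA and 2351.2 to 3028.8 CPM after negative siRNA. Of 12 fibroblast markers 1 fell with DNMT3a siRNA and 2 with DNMT3b siRNA. With DNMT3a siRNA the count was 0 without DNMT3a library 1 or negative library 3 or with no filter, and 2 without DNMT3a library 2 or the libraries numbered 2 and with DESeq2. With DNMT3b siRNA it was 0 without DNMT3b library 3, negative library 1 or negative library 3, and 1 without DNMT3b library 2 or with no filter. The fibroblast markers had sums of 42798.5 to 45428.9, 40364.5 to 47191.9 and 42529.7 to 60993.0 CPM after DNMT3a, DNMT3b and negative siRNA. Of 10 macrophage and leukocyte markers 3 fell with DNMT3a siRNA, or 10 with the replicate number as a block, 5 with DESeq2 or without negative library 1, 1 without negative library 3, and 0 without the libraries numbered 2. With DNMT3b siRNA 0 of them passed in edgeR, DESeq2 or limma-voom, and 0 had an unadjusted p under 0.05. The count with DNMT3b siRNA was 2 lower with the replicate number as a block in edgeR, and 1 lower without negative library 1. These summed to 8.54 to 18.2, 20.6 to 50.3 and 22.9 to 61.4 CPM in the same order of groups.

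The 10 smooth muscle and pericyte markers summed to 7972.1 to 9129.8 CPM after DNMT3a siRNA, 8081.5 to 9684.5 CPM after DNMT3b siRNA and 5524.5 to 8287.9 CPM after negative siRNA. Of these, 0 passed in edgeR with either siRNA against negative siRNA, 3 and 5 were higher at an unadjusted p under 0.05 with DNMT3a and DNMT3b siRNA, and over the 18 alternatives 0 to 2 were called higher with DNMT3a siRNA and 0 to 5 with DNMT3b siRNA. The 10 endothelial and endocardial markers summed to 190 to 212, 249 to 265 and 185 to 224 CPM in the same order. After DNMT3b siRNA 1 of them rose (Kdr, adjusted p = 0.0276 in edgeR), beside 3.52% of all genes. That count was 0 without any 1 of the DNMT3b libraries, negative library 1 or negative library 3, 2 without negative library 2 or with the replicate block, and 5 without the libraries numbered 2. The other epithelium markers summed to 2.68 to 4.03, 4.402 to 5.26 and 3.74 to 6.05 CPM. No gene of these lists was at 0 in every library. The 10 epicardial genes together summed to 2185.5 ± 291.3 CPM after DNMT3a siRNA, 2877.1 ± 302.1 CPM after DNMT3b siRNA and 2803.1 ± 163.7 CPM after negative siRNA (SD, n = 3 each). Without Clu, a split chosen after its values were seen, the 9 others summed to 1687.1 ± 283.9, 1776.5 ± 313.4 and 2465.7 ± 250.0 CPM. The part of the other cell types in the epicardial values was not tested.

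**Figure D5:**
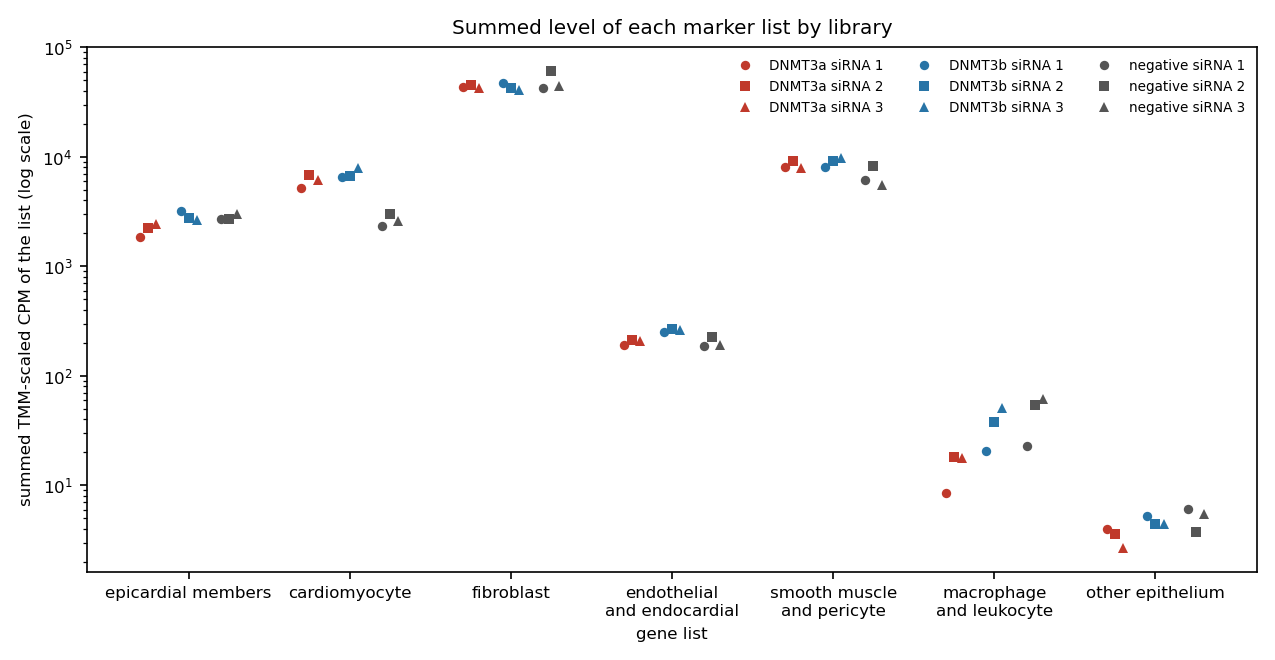
Summed TMM-scaled CPM (vertical axis, log scale) of each marker list in each library, colored by siRNA and marked by library number. Heart muscle markers lie between 5229.9 and 7953.6 CPM in the knockdowns and between 2351.2 and 3028.8 CPM in the controls, and the markers of other epithelia stay at or below 6.05 CPM.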

How the data were processed

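RNA-seq was made from 9 libraries, 3 for each siRNA. The authors deposited 1 table per library with read counts per Ensembl gene, not normalized. The submitters' processing notes name FastQC, TopHat2 and HTSeq and the builds mm10 and GRCm38. Not given in the sources used here were versions, the annotation release and the strand setting, so reads of overlapping genes on opposite strands may not be separated. Lines that name no gene held 49.2% to 56.2% of each table and were left out.

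Symbols and merged exon lengths came from GENCODE mouse release 21, which named 42548 of 43629 genes. One fit of all 9 libraries used edgeR 4.0.16 in R 4.3.3: the filterByExpr filter (minimum count 10, minimum total 15), TMM scaling, a group term with no covariate, the robust quasi-likelihood F test, two-sided, and Benjamini-Hochberg adjustment over 16561 genes. A gene was called at an adjusted p under 0.05. Each standard error is the size of the fold change over the root of F. RPKM is TMM-scaled CPM per kilobase of merged exons, and log2 CPM used a prior count of 2. The fit was tested on simulated data with independent libraries. That test does not cover the correlation between same-numbered libraries given below. CPM, RPKM and fold changes were computed here from the deposited counts.

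All 10 members are named in every comparison. Up to 4 called genes with the smallest adjusted p per comparison are named from some lists. These are the other epicardial genes, the transition and signalling genes and the family relatives. Genes of the cell type lists are named only in part. For likeness up to 2 of the 3 nearest genes are named. With DNMT3a siRNA, Krt7, Krt8, Krt18, Sema3d, Igfbp6, Efemp1, Cdh2, Tgfb2 and the transition factors are named in addition. The members and the lists were chosen with earlier results of these data known. The labels do not say that the libraries came from separate cultures, so p-values measure the spread between these libraries, which may be technical. No 2 libraries of a group agreed within counting error (chi-square per degree of freedom 6.42 to 59.7). Deviations of same-numbered libraries from their group means correlated at 0.434, 0.513 and 0.459 between DNMT3a and negative siRNA. Pairing by number, drawn from the data and not from the labels, was therefore run as an alternative, the replicate block. The main fit did not pair the libraries, so its p-values leave this correlation out. Between DNMT3b and negative siRNA the correlations were 0.212, 0.101 and 0.033.

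Alternatives were median-ratio and library-size scaling, no filter, at least 1 CPM in 3 libraries, limma-voom (limma 3.58.1), DESeq2 1.42.0, only the 2 groups compared, the replicate number as a block, leaving out the libraries numbered 2, and leaving out each library. Promoter windows are RefSeq sequence on GRCm38.p6.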

Additional observations from a re-analysis of the deposited data

How the results depend on the processing

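Each of the 30 member fold changes was recomputed under 18 alternatives: 492 of these values kept their direction and their side of the threshold, 28 lost the call, 12 gained it and 8 changed sign. The calls of Tcf21 and Anxa8 with DNMT3a siRNA and of Clu with DNMT3b siRNA held in all 18. Leaving out libraries, the count of members called with DNMT3a against negative siRNA was 0 to 1 higher and 2 to 4 lower, with DNMT3b against negative siRNA 1 higher and 0 to 5 lower, and with DNMT3a against DNMT3b siRNA 0 higher and 0 to 2 lower. DESeq2 called 5 members lower with DNMT3b siRNA, and without the filter 1 was lower with DNMT3a than with DNMT3b siRNA. Over all genes, calls with DNMT3a against negative siRNA numbered 1671, against 938 in a fit of only these groups, 2303 with DESeq2, 2370 with the replicate block and 877 to 1844 without a library. With DNMT3b against negative siRNA they numbered 934, against 1715 with DESeq2, 1801 with the replicate block and 298 to 1784 without a library. Between the knockdowns they numbered 1582, against 2513 with the replicate block and 521 to 1967 without a library. The cause of these shifts was not tested.

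Sign changes were those of Wt1 with DNMT3a against negative siRNA (0.016 with library size alone, -0.13 to 0.082 without a library), of Lrrn4 with DNMT3b against negative siRNA (-0.070 to 0.20 without a library), and of Upk1b between the knockdowns (-0.21 to 0.17 without a library). None of these 3 fold changes had passed the test. Pairing by replicate number ended one member call, that of Upk1b with DNMT3a siRNA (adjusted p = 0.0508 with the replicate block in edgeR), and changed no other member call. Library size alone gave 61.1% of calls higher with DNMT3a against negative siRNA, in place of 48.3%. Anxa8 rests on 57 to 410 reads per library in DNMT3a and negative siRNA cells, fewer than any other member.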
